A study of Mus musculus with 24 samples.

Results

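The liver of male C57Bl/6J mice after 12 months on a Western diet, labelled m12_WD, was compared with the liver after 12 weeks on the same diet, labelled w12_WD, both without vinyl chloride (VC). The members are 5 of the 24 libraries of the series, 3 of m12_WD and 2 of w12_WD, chosen by their labels. The third w12_WD library held 607 counts and was left out by the rule that defines the comparison. Both groups ate a diet with 42% fat, sat in inhalation chambers with clean air (6 hours daily, 5 days weekly, 12 weeks in all), and were fasted for 4 hours before the liver was taken. The m12_WD group stayed on the diet for 9 further months after the chamber period. The same interval was also measured on Western diet after VC (m12_WD+VC against w12_WD+VC) and on a control diet with 13% fat in clean air (m12_CD against w12_CD), 3 libraries a group. VC was inhaled at 0.85 ± 0.1 ppm over the same 12 weeks. Ages are not labelled, and neither is the animal behind each library, so the p-values reflect spread among these libraries, which may be technical. Time on the diet and age cannot be told apart in this comparison.

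A Western diet fills hepatocytes with lipid, and resident and recruited macrophages take up lipid and debris from them. Such lipid-laden macrophages are known for osteopontin (Spp1), Gpnmb, lysosomal cathepsins and antigen-presenting proteins, and stellate cells beside them lay down matrix. Hepatocytes secrete most plasma proteins, and in male mice they also secrete major urinary proteins (Mup), pheromone carriers whose synthesis follows the pulses of growth hormone.

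RNA-seq counts per gene were shallow. The m12_WD libraries held 540432, 407177 and 962493 counts and the w12_WD libraries held 420735 and 135577. A count of 0 allows up to 5.55, 7.37 and 3.12 CPM (counts per 1000000 counts of the library) in the m12_WD libraries and up to 7.13 and 22.1 CPM in the w12_WD libraries, counting error only. The tissue label fits its markers: 21 of 22 hepatocyte genes in the table were tested, and only Ass1 was at 0 in all 5 libraries. Albumin (Alb) stood at 7280, 6980 and 2490 CPM in m12_WD and at 4390 and 1930 CPM in w12_WD. Gene entries whose exons do not overlap a gene on the other strand held 25.8% ± 3.9 of the counts in m12_WD (SD, n = 3) and 15.0% ± 3.32 in w12_WD (SD, n = 2). This share moved with the groups, and its part in the results below was not tested.

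How reads were assigned to strands limits every level below. Entries with an opposite-strand overlap are 5794 of 24421 (23.7%), and they held 68.3% to 76.1% of the counts in m12_WD and 80.7% and 85.2% in w12_WD. Of 1388 such pairs with at least 100 counts over all libraries, 672 (48.4%) had more than 90% of their counts in 1 of both entries. In some of these most counts stood opposite a gene that liver expresses strongly: Gm30505 held 811098 counts against 9493 for Ahsg, and Hcn3 held 15047 against 293 for Pklr. The kit on the labels does not mark strand, and why the counts of these pairs part in this way was not tested. Which strand was read and counted is not stated in the sources used here and was not tested. An entry's level, also of an entry without an overlap, may therefore not be the level of its own gene's transcript, and a count of 0 need not mean low expression. Partners are named below where an entry overlaps a named gene.

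Of 4764 genes tested, edgeR called 595 (12.5%) at an adjusted p under 0.05, 294 higher in m12_WD (6.17%) and 301 lower (6.32%). Over all genes tested the median was 0.23 on the log2 scale, and 1264 genes had an unadjusted p under 0.05. Fold changes lay above 0 for 2779 of 4764 genes, and for 1649 of 2409 entries without an opposite-strand overlap. CPM of the groups did not overlap for 2167 genes (45.5%), 590 of the called genes among them. Entries without an opposite-strand overlap had a median of 0.56, with 200 higher and 101 lower among 2409, and overlapping entries had a median of -0.04, with 93 higher and 190 lower among 2303. When both classes were scaled apart, 202 genes were higher and 329 lower and the median of all genes was 0.10. The calls rested on the small w12_WD group, where leaving out a library leaves 1, so calls can be lost by that alone. Without w12_WD 1 there were 74 higher and 144 lower, and without w12_WD 2 there were 35 higher and 154 lower. In all, 110 genes were called whichever of the 5 libraries was left out, 15 higher and 95 lower. Among the higher entries named below, C1qa, Krt18, Trf, Hpx, Hp, C3, Ftl1, Rpl13a, Rps24, Rps15, Pigr and AV064505 were called whichever of the 5 libraries was left out, and the others lost their call without at least 1 library. Among the lower ones, Mup7, Mup3, Serpina1e, Hsd3b5, Abcg8, Zap70 and AW495222 lost theirs without at least 1 library. Genes with few counts in every group were not tested, so a gene near 0 in w12_WD was tested only through its level in m12_WD or in another group of the series, and the list counts below are descriptions.

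**Figure D1:**
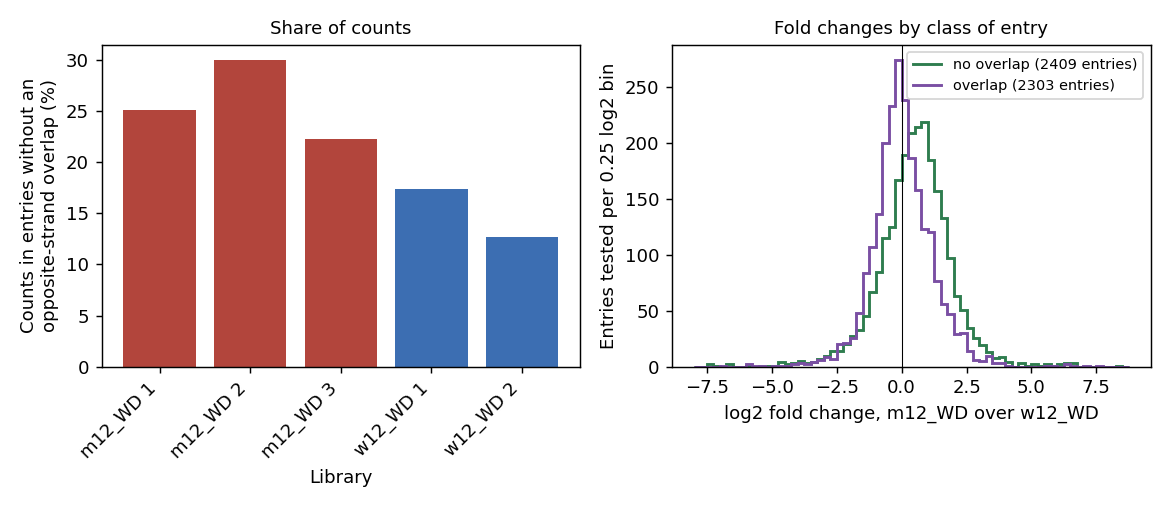
Left, the share of each library's counts (percent) in entries without an opposite-strand overlap, with m12_WD in red and w12_WD in blue. Right, the number of tested entries by log2 fold change (m12_WD over w12_WD) for entries without and with such an overlap. The 3 m12_WD libraries stand at 22.3% to 30.0%, above both w12_WD libraries at 17.4% and 12.7%, and the curve of entries without an overlap lies to the right.

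**Figure D2:**
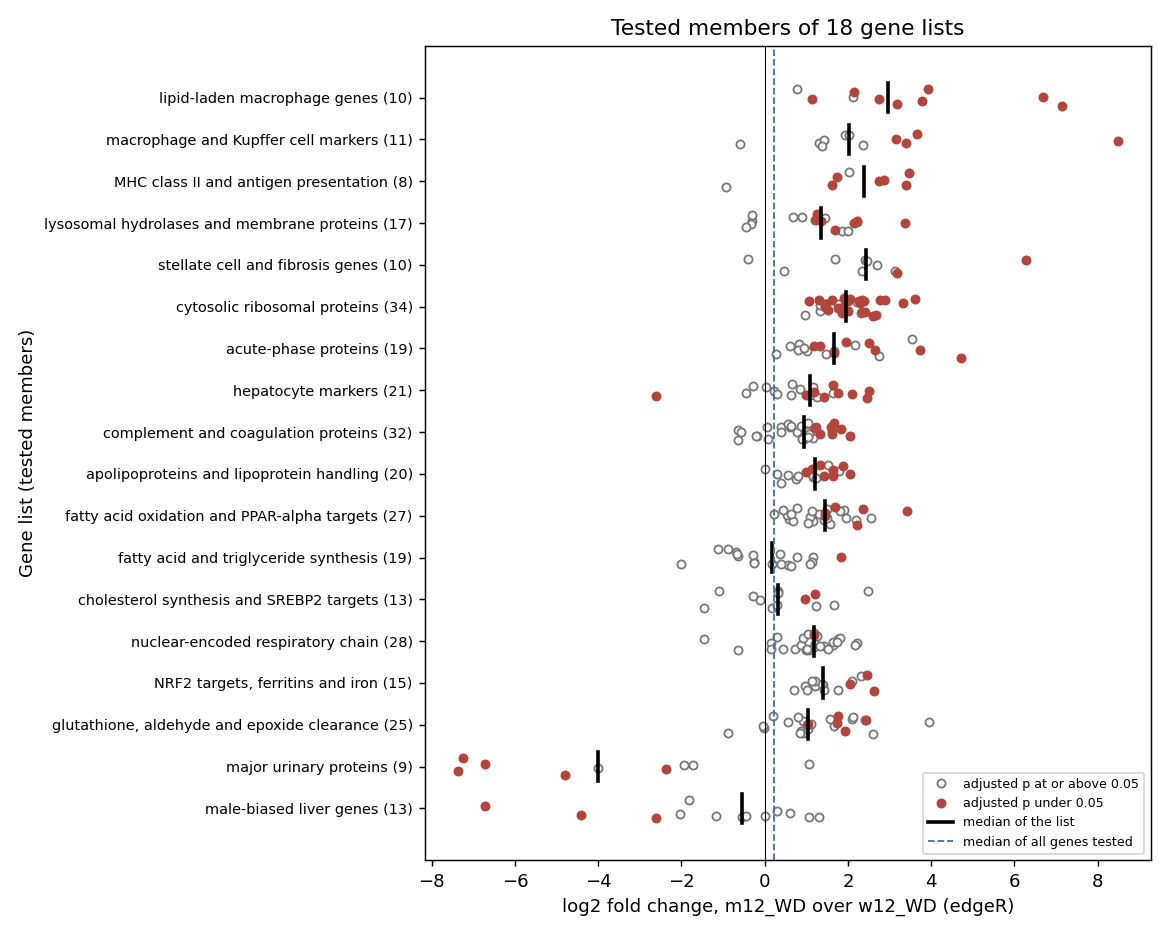
Each point is the log2 fold change (m12_WD over w12_WD, x axis) of a tested member of a gene list (y axis), filled where the adjusted p was under 0.05. Black bars are list medians and the dashed line is the median of all genes, 0.23. Lists of macrophage, antigen presentation and ribosomal protein genes have medians from 1.96 to 2.97, and major urinary proteins have a median of -4.0. The points beyond 6 in either direction are genes at or near 0 counts in a group, whose fitted values are no bound.

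Several genes of lipid-laden macrophages rose in livers with 12 months of Western diet. Of 20 listed, 10 were tested, of which 8 were called higher and 0 lower, with a median log2 fold change of 2.97, or 2.77 with genes at 0 in a group set to their lower bound. Spp1, which encodes the secreted matrix protein osteopontin (chr5:104435118-104441050, GRCm38), had 61.1, 199 and 134 CPM in m12_WD, against 7.13 and 7.38 CPM in w12_WD. It is also a member of the list of duct markers below. The lowest m12_WD library was well above both w12_WD libraries, and edgeR gave a log2 fold change of 3.93 (SE 0.78, adjusted p = 0.000918). Without w12_WD 1 the adjusted p of Spp1 was 0.0732. Gpnmb, a membrane glycoprotein of lysosomes in lipid-loaded macrophages (chr6:49036546-49070929), had 33.3, 44.2 and 37.4 CPM in m12_WD and 0 counts in both w12_WD libraries. It was at least 6.99-fold higher, with w12_WD set to a floor of 3 counts in total (edgeR adjusted p = 0.0152). This bound, like those below, pools the counts of a group's libraries and leaves out the spread among them. The chemokine receptor gene Cx3cr1 (overlapping Gm33858) was at least 12.1-fold higher in pooled counts, and its m12_WD libraries differed widely at 13.0, 29.5 and 110 CPM. The highest of these is also the deepest library, so it weighs most in that bound. Lgals3 (galectin-3), the lipase gene Lpl, the cathepsin genes Ctsd and Ctsb and the lipid carrier gene Apoe were the other called members. Lgals3 had 57 counts over m12_WD and 1 count over w12_WD, a ratio of 16.6 with an exact 95% interval of 2.86 to 667.

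Fewer of the general macrophage and Kupffer cell markers were called. Of 20 listed, 11 were tested, of which 4 were called higher and 0 lower, with a median of 2.03, and 10 lay above 0. The lysozyme gene Lyz2 had 124, 253 and 32.2 CPM in m12_WD and 0 counts in both w12_WD libraries, which makes it at least 19.5-fold higher in pooled counts. C1qa and C1qb encode chains of the complement starter C1q, which macrophages make. C1qa had 70.3, 111 and 123 CPM in m12_WD, against 9.51 and 0 CPM in w12_WD (edgeR adjusted p = 0.00191). Cd5l, a secreted protein of Kupffer cells, averaged 88.5 ± 15.0 CPM in m12_WD (SD, n = 3) and 5.94 ± 8.4 CPM in w12_WD (SD, n = 2). Summed over the 20 markers in the table, the level was 743 to 1050 CPM in m12_WD and 140 to 181 CPM in w12_WD. None of the 20 was at 0 throughout m12_WD, and Lyz2, Cd14, Fcgr1, Laptm5 and Fcer1g were at 0 in both w12_WD libraries. The w12_WD libraries together hold fewer counts than those of m12_WD, so a low level falls to 0 there more readily. In bulk liver, more cells of a type and more RNA per cell cannot be told apart.

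Most tested antigen presentation genes rose. Of 13 listed, 8 were tested, of which 6 were called higher and 0 lower (median 2.39). Cd74, the invariant chain that guides MHC class II through the cell, had 155, 182 and 176 CPM in m12_WD, against 9.51 and 22.1 CPM in w12_WD. All m12_WD libraries lay above both w12_WD libraries (log2 fold change 3.47, SE 0.68, edgeR adjusted p = 0.000878), and without w12_WD 1 the adjusted p was 0.106. H2-Ab1, a class II chain, averaged 155 ± 38.2 CPM in m12_WD and 20.6 ± 2.2 CPM in w12_WD. H2-Aa, its partner chain, had 3 counts over w12_WD and a ratio of 11.6 (exact 95% interval 3.86 to 56.8). The class I genes H2-K1, H2-D1 and B2m were also called.

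The entry Mir142b rose as well. Mir142 is a microRNA locus of blood-derived cells, and the entry Mir142b lies on its other strand (chr11:87756841-87756955). Mir142b had 77.7, 86.0 and 150 CPM in m12_WD, against 14.3 and 14.8 CPM in w12_WD, without overlap between the groups (edgeR adjusted p = 0.0196). Its partner entry Mir142 held 1 count over all libraries, against 479 for Mir142b, and which strand these reads came from is not known here. The mature sequences of both strands (RefSeq, GRCm38.p6) are shown because their seeds, bases 2 to 8 in capitals, differ between the entries.
mmu-miR-142b: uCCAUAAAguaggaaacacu
mmu-miR-142a-5p: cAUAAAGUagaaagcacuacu
mmu-miR-142a-3p: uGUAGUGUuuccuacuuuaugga

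Some lysosomal genes rose with them. Of 17 tested in the lysosomal list, 7 were called higher and 0 lower (median 1.36). Ctsd, which encodes the aspartic protease cathepsin D and was counted with the lipid-laden genes (chr7:142375911-142388038), had 187, 241 and 177 CPM in m12_WD, against 35.7 and 7.38 CPM in w12_WD. Its log2 fold change was 2.74 (SE 0.56, edgeR adjusted p = 0.00131). Psap, the precursor of the saposins that help break down sphingolipids, averaged 215 ± 16.1 CPM in m12_WD and 34.7 ± 28.2 CPM in w12_WD. Grn (progranulin, overlapping Fam171a2) averaged 103 ± 29.9 CPM in m12_WD and 5.94 ± 8.4 CPM in w12_WD. Ctsa, Ctsl, Ctsz, Ctsh and the membrane protein gene Lamp1 were the other called members. Ctsa overlaps Pltp (38504 counts over all libraries for Ctsa, 9959 for Pltp), Ctsz overlaps Nelfcd (1069 for Ctsz, 2042 for Nelfcd), and Lamp1 and Ctsl overlap Grtp1 and Gm47123.

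Factors of the MiT/TFE family, which switch on lysosomal genes, bind the letters CACGTG, which read the same on both strands. These letters were searched in windows from 250 bases before to 50 after annotated starts (RefSeq, GRCm38.p6) of 15 called lysosomal and lipid-laden macrophage genes. The 12 genes found in the table had 17 windows, of which 4 held the letters, 1 each of Ctsd, Lamp1, Ctsa and Ctsl. Over all 32851 windows of the table, 7.15% held them. A match is only a description of the letters. The windows of Ctsd (chr7:142387778-142388077, minus strand, 2 matches), Lamp1 (chr8:13158911-13159210, plus strand, 4 matches) and Gpnmb (chr6:49036268-49036567, plus strand, 0 matches) are shown 5′ to 3′ to set called genes with and without the letters side by side, with matches in capitals.
Ctsd: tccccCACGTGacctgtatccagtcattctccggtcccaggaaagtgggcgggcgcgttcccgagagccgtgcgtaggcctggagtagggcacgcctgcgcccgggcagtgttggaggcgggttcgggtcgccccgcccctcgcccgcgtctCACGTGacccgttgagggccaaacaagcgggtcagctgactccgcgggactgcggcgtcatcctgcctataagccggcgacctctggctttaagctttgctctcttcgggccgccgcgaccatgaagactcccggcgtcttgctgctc
Lamp1: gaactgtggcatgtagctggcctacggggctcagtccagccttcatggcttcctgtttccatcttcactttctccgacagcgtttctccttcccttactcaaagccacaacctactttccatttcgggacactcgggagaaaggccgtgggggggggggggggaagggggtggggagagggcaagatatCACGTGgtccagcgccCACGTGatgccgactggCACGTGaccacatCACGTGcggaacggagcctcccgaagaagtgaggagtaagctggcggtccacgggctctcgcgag
Gpnmb: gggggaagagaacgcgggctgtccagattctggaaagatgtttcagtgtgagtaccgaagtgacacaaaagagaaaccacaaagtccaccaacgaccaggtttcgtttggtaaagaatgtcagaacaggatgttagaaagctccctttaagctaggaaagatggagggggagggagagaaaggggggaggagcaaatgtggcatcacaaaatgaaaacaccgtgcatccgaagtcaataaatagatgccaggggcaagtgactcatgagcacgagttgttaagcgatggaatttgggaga

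The macrophage and lysosome counts fell when a w12_WD library was left out, which leaves 1 in that group, so calls can be lost by that alone. List medians stayed above 0 without w12_WD 1 and without w12_WD 2. They were 5.22 and 2.61 for lipid-laden genes, 5.66 and 1.65 for macrophage markers, 2.39 and 2.41 for antigen presentation and 2.09 and 1.18 for the lysosomal list. Fitted values of genes at 0 counts in a group enter these medians and are no bound. Among the lipid-laden genes, 1 of 12 tested was called higher without w12_WD 1 and 1 of 12 without w12_WD 2. Among macrophage markers, 1 of 13 was called without w12_WD 1 and 2 of 13 without w12_WD 2. For antigen presentation it was 2 of 8 without either library, and 4 of 8 without m12_WD 1 or without m12_WD 2. For the lysosomal list it was 3 of 18 without w12_WD 1, 0 of 18 without w12_WD 2 and 3 of 17 without m12_WD 1. The lipid-laden list also fell to 5 of 10 without m12_WD 2. With both entry classes scaled apart, 6 of 10 lipid-laden, 4 of 11 macrophage, 3 of 8 antigen presentation and 6 of 17 lysosomal genes were called higher. With overlapping entries left out, this was 2 of 6 lipid-laden, 4 of 9 macrophage, 3 of 7 antigen presentation and 1 of 9 lysosomal genes.

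**Figure D3:**
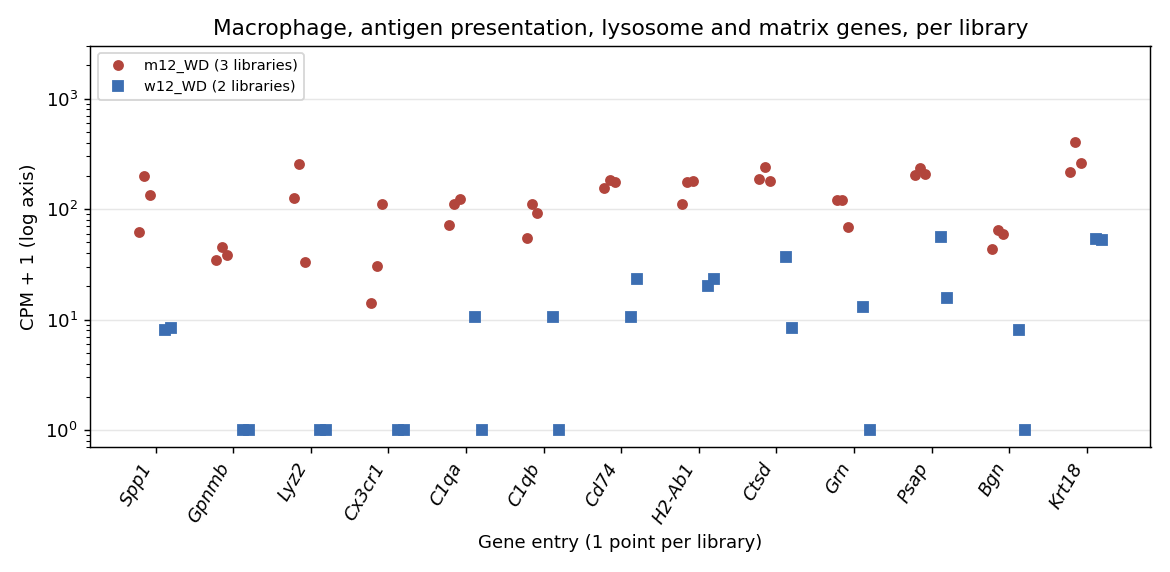
CPM + 1 per library (log axis) of macrophage, antigen presentation, lysosome, matrix and keratin genes, with the 3 m12_WD libraries as red circles and the 2 w12_WD libraries as blue squares. For each gene the circles lie above the squares, and Gpnmb, Lyz2 and Cx3cr1 are at 0 counts in both w12_WD libraries. The genes were chosen among called ones. Of 595 called genes, 590 have groups that do not overlap, beside 45.5% of all genes tested.

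Matrix and keratin genes gave fewer calls. Of 10 tested stellate cell and fibrosis genes, 2 were called higher and 0 lower (median 2.43, or 2.41 with a gene at 0 set to its bound). These were Timp2, an inhibitor of matrix proteases that was at least 5.34-fold higher, and the proteoglycan gene Bgn, with 105 counts over m12_WD and 3 over w12_WD. Col1a1, the main fibrillar collagen gene, had 20.4, 7.37 and 48.8 CPM in m12_WD and 4.75 and 0 CPM in w12_WD, and did not pass (edgeR adjusted p = 0.139). With overlapping entries left out, 0 of 5 stellate cell and fibrosis genes were called. Neither Bgn nor Timp2 was called without w12_WD 1, without w12_WD 2 or without m12_WD 2. The keratin genes Krt18 and Krt8, expressed in hepatocytes and more strongly in bile duct cells, were both called, and Krt8 overlaps Gm36026. Krt18 had 216, 405 and 261 CPM in m12_WD, against 52.3 and 51.6 CPM in w12_WD (log2 fold change 2.29, SE 0.40, edgeR adjusted p = 0.000222), and its groups did not overlap. The cholangiocyte and ductular list had 3 tested members, Krt18, Krt8 and Spp1, and all 3 were called higher (median 2.29). Its summed level was 498 to 1010 CPM in m12_WD and 88.5 to 171 CPM in w12_WD. Whether the change in Spp1 lies in macrophages or in duct cells was not tested. The duct markers Krt7, Krt19 and Epcam were at 0 in both w12_WD libraries and were not tested. With the fewer counts of w12_WD, these zeros alone do not show a difference between the groups.

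Markers of other cell types had few counts, although zeros are hard to read here, since the abundant hepatocyte gene Ass1 was at 0 too. Of 9 neutrophil markers in the table, 6 were at 0 in all 5 libraries and 0 were tested, and their summed level was 9.82 to 38.4 CPM in m12_WD and 0 to 2.38 CPM in w12_WD. The part of these cells in the results was not tested. Of 17 T, NK and B cell markers, 9 were at 0 in all 5, and the summed level was 3.70 to 29.5 CPM in m12_WD and 26.1 to 36.9 CPM in w12_WD, with the T cell kinase gene Zap70 called lower as the tested member. Of 6 tested endothelial markers, 0 were called by edgeR, DESeq2 or limma-voom, 2 had an unadjusted p under 0.05, and their list summed to 685 to 885 CPM in m12_WD and 730 to 744 CPM in w12_WD. Adult globin genes were at 0 in all 5 libraries, and so were 9 of 11 adipocyte and pancreas markers.

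Ribosomal protein and elongation factor genes were the list with most calls. Of 34 tested, 27 were called higher and 0 lower, and the median was 1.96. Rpl13a, a large subunit protein (chr7:45125558-45128761), had 311, 312 and 243 CPM in m12_WD, against 45.2 and 22.1 CPM in w12_WD, a log2 fold change of 2.77 (SE 0.49, edgeR adjusted p = 0.000243). Rps24, a small subunit protein, had 435, 526 and 305 CPM in m12_WD, against 87.9 and 59.0 CPM in w12_WD. The groups did not overlap for either gene, nor for Rps15, which is not in the list. Eef1a1, which brings charged tRNA to the ribosome, averaged 1870 ± 417 CPM in m12_WD and 440 ± 225 CPM in w12_WD. The count of 27 fell to 19 of 34 with both classes scaled apart, to 7 without w12_WD 1 and to 5 without w12_WD 2. With overlapping entries left out, 15 of 27 tested members were called higher. In the summed list, m12_WD libraries stood at 6810 to 8830 CPM and w12_WD libraries at 1430 to 2260 CPM.

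A minority of the plasma protein genes of hepatocytes rose. Of 19 tested acute-phase genes, 8 were called higher and 0 lower (median 1.66), and of 32 complement and coagulation genes, 9 were higher and 0 lower (median 0.94). Hp, the haemoglobin scavenger haptoglobin (chr8:109575128-109579172), had 3210, 3870 and 2800 CPM in m12_WD, against 670 and 236 CPM in w12_WD. Its log2 fold change was 2.64 (SE 0.41, edgeR adjusted p = 4.47e-05). Hpx, which binds free haem, averaged 1200 ± 411 CPM in m12_WD and 175 ± 122 CPM in w12_WD, and the central complement gene C3 averaged 5340 ± 1810 CPM in m12_WD and 1140 ± 709 CPM in w12_WD. Lcn2, an iron-siderophore binder of the acute phase, had 177 counts over m12_WD and 2 over w12_WD, a ratio of 25.8 (exact 95% interval 7.03 to 214). Orm1 and Orm2 are near-identical paralogs and their split is uncertain. Of the acute-phase list 2 of 20 were called without w12_WD 2, 5 of 19 without m12_WD 1 and 4 of 19 without m12_WD 2, and of the complement list 1 of 34 without w12_WD 2, 4 of 34 without w12_WD 1 and 4 of 32 without m12_WD 1 or without m12_WD 2. With classes scaled apart they gave 5 of 19 and 5 of 32.

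Transferrin and both ferritin genes rose beside them. Of 15 tested genes of the NRF2, ferritin and iron list, 3 were called higher and 0 lower (median 1.41). Trf, the plasma iron carrier transferrin, had 5940, 6750 and 3470 CPM in m12_WD, against 1300 and 398 CPM in w12_WD (log2 fold change 2.46, SE 0.41, edgeR adjusted p = 0.000107). The ferritin light chain gene Ftl1 (overlapping Gm10252) averaged 543 ± 173 CPM in m12_WD and 69.5 ± 46.2 CPM in w12_WD, and the heavy chain gene Fth1 averaged 790 ± 210 CPM in m12_WD and 157 ± 97.1 CPM in w12_WD. No other member of the list was called.

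Other hepatocyte markers did not all move alike. Of 21 tested, 8 were called higher and 1 lower (median 1.08). Ahsg rose, but this entry held 9493 counts over all libraries against 811098 for its opposite-strand partner Gm30505. Alb did not pass, with a log2 fold change of 0.64 (SE 0.43, edgeR adjusted p = 0.347), and m12_WD 3 at 2490 CPM lay between both w12_WD libraries. The called lower member was Serpina1e. Pigr, the receptor that carries IgA across epithelium, had 2700, 2110 and 3130 CPM in m12_WD, against 578 and 575 CPM in w12_WD. Both w12_WD libraries lay far below the 3 m12_WD libraries (log2 fold change 2.02, SE 0.34, edgeR adjusted p = 0.00012). Of the hepatocyte list, 5 of 21 were called higher with classes scaled apart, without m12_WD 1 or without m12_WD 2, and 2 of 21 without w12_WD 2.

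Genes of fat oxidation lay higher as a list, and a minority of them were called. Of 27 tested, 6 were called higher and 0 lower, all 27 fold changes were above 0, and the median was 1.44. Ehhadh, a peroxisomal oxidation enzyme, had 157, 160 and 79.0 CPM in m12_WD, against 33.3 and 7.38 CPM in w12_WD (edgeR adjusted p = 0.0163). Cyp4a10, a fatty acid hydroxylase, and Cpt1a, the gate to mitochondrial oxidation, were also called. The receptor gene Ppara had 44.4, 78.6 and 22.9 CPM in m12_WD and 23.8 and 7.38 CPM in w12_WD and did not pass (edgeR adjusted p = 0.317). With overlapping entries left out, 1 of 13 tested members of the list was called higher. Of this list, 3 of 27 were called with classes scaled apart, 2 of 29 without w12_WD 1, 0 of 29 without w12_WD 2, 1 of 26 without m12_WD 1 and 3 of 26 without m12_WD 2. Of 28 tested respiratory chain genes, 1 was called higher and 26 lay above 0. Over all 4764 genes tested, 294 were called higher and 2779 lay above 0. Only 9 of the 27 fat oxidation genes have an opposite-strand overlap. Of 2409 entries without such an overlap, 200 were called higher and 1649 lay above 0.

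Lipid storage gave 4 calls higher and 0 lower among 20 tested (median 0.87). Plin2, which coats lipid droplets, averaged 193 ± 90.9 CPM in m12_WD and 41.8 ± 38.3 CPM in w12_WD, and Hsd17b13, a droplet enzyme, averaged 198 ± 66.2 CPM in m12_WD and 35.1 ± 2.55 CPM in w12_WD. Fabp4, a fatty acid carrier of fat cells and macrophages, was at least 5.92-fold higher. Of the storage list, 0 of 24 were called higher without w12_WD 1 and 0 of 24 without w12_WD 2, 2 of 20 without m12_WD 2, and 1 of 20 with classes scaled apart. Fatty acid and triglyceride synthesis had a median of 0.17, with 1 of 19 called higher and 0 lower, and this median turned to -0.08 with classes scaled apart. Fasn and Scd1, the enzymes that build and desaturate fatty acids, varied widely within groups. Scd1 had 461, 1880 and 245 CPM in m12_WD, against 1440 and 317 CPM in w12_WD, and the groups overlapped (edgeR adjusted p = 0.883). Cholesterol synthesis gave 2 of 13 higher and 0 lower (median 0.32), among them Fdft1, whose exons overlap Ctsb, and 0 of 15 were called without w12_WD 1 or without w12_WD 2. Without m12_WD 2 it gave 1 higher and 2 lower (median -0.02), without m12_WD 1 it gave 0 calls, with limma-voom 2 higher and 1 lower (median -0.10), and without overlapping entries the median was -0.5.

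Some apolipoprotein genes rose, and 1 sterol pump gene was lower. Of 20 apolipoprotein and lipoprotein genes tested, 8 were called higher and 0 lower (median 1.20). Apoe had 19700, 21600 and 20200 CPM in m12_WD, against 9360 and 6960 CPM in w12_WD, and Apoa4 (overlapping Gm47528) averaged 1860 ± 602 CPM in m12_WD and 384 ± 136 CPM in w12_WD. Without w12_WD 2, 0 of 20 were called, without w12_WD 1, 3 of 20, without m12_WD 1, 5 of 20, without m12_WD 2, 4 of 20, and with classes scaled apart, 4 of 20. Abcg8, a subunit of the pump that sends sterols into bile, was called lower. Its level was 816, 936 and 796 CPM in m12_WD, against 1640 and 2060 CPM in w12_WD (log2 fold change -1.31, SE 0.33, edgeR adjusted p = 0.00753), and it overlaps the other subunit gene, Abcg5, on the opposite strand, which lay at 0.79 and did not pass. Without w12_WD 2 it was not called.

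Detoxification and stress genes added a few calls. Of 25 tested glutathione, aldehyde and epoxide genes, 5 were higher and 0 lower (median 1.04), among them Gstm1, a glutathione transferase with near-identical paralogs, and the epoxide hydrolase gene Ephx1. With overlapping entries left out, 0 of 15 genes of this list were called. Of 16 P450 and related genes, 2 were higher and 0 lower. Cyp2a4, a P450 that female livers express more, was at least 12.9-fold higher, with 154, 51.6 and 30.1 CPM in m12_WD and 0 counts in w12_WD. It overlaps Gm42375 and shares much of its sequence with Cyp2a5, so how its reads were split is uncertain. Cyp2e1, which oxidises VC and ethanol, had 2210, 2020 and 1130 CPM in m12_WD and 925 and 465 CPM in w12_WD, and did not pass (edgeR adjusted p = 0.121), but was called with limma-voom and without the filter on low counts. Of 16 unfolded protein and stress response genes, 4 were higher and 0 lower, with the chaperone gene Calr averaging 1260 ± 145 CPM in m12_WD and 412 ± 92.7 CPM in w12_WD. Of the clearance list, 2 of 25 were called with classes scaled apart, 1 of 24 without m12_WD 1 or without m12_WD 2, 1 of 26 without w12_WD 1 and 0 of 26 without w12_WD 2. Of the stress list, 2 of 16 were called without m12_WD 1, 1 of 16 without w12_WD 1 and 0 of 16 without w12_WD 2.

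Lists of interferon-stimulated genes (9 tested), glycolysis (18), proliferation (5) and oncofetal genes (8) gave 0 calls with edgeR, with 4, 5, 0 and 2 members at an unadjusted p under 0.05 in that order of lists. DESeq2 called 2 glycolysis genes higher and 0 genes of the other 3 lists, and limma-voom called 3 interferon genes and 2 oncofetal genes higher, 2 glycolysis genes higher and 1 lower, and 0 proliferation genes. Afp, the fetal albumin, had 57.4, 34.4 and 88.3 CPM in m12_WD and 90.3 and 66.4 CPM in w12_WD. Gpc3 was at 0 in all 5 libraries, and Mki67 and Cdkn1a had too few counts to test. Igfbp2 and Igfbp1, which bind insulin-like growth factors, were the called members of the senescence and ageing list, both higher, and neither was called without w12_WD 1 or without w12_WD 2.

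Part of the major urinary protein genes were lower after 12 months. Of 20 in the table, 9 were tested, of which 5 were called lower and 0 higher, with a median log2 fold change of -4.0, or -2.38 with genes at 0 in a group set to their bound, and Mup20 lay at 1.06 without passing. Mup11 had 0 counts in all m12_WD libraries, against 54.7 and 51.6 CPM in w12_WD, at least 34.3-fold lower. Mup14 was at least 33.2-fold lower, with 0 counts in m12_WD, against 57.0 and 36.9 CPM in w12_WD. Mup3 averaged 57.0 ± 14.3 CPM in m12_WD and 247 ± 203 CPM in w12_WD, and both w12_WD libraries, at 390 and 103 CPM, lay above the 3 m12_WD libraries. These genes are near-identical copies on chromosome 4, and the split of reads among them is uncertain. Summed over the 20 Mup entries in the table, the ranges overlapped, at 241 to 653 CPM in m12_WD and 302 to 979 CPM in w12_WD. Without w12_WD 1, 2 of 10 were called, and without m12_WD 1, 3 of 9.

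Of 13 tested male-biased liver genes, 3 were called lower and 0 higher (median -0.55). They were Mup7, Hsd3b5, a steroid dehydrogenase, and Serpina1e, an antitrypsin paralog. Serpina1e had 24.1, 61.4 and 2.08 CPM in m12_WD, against 138 and 140 CPM in w12_WD (edgeR adjusted p = 0.0152). None of the 3 was called without w12_WD 1. The female-biased list had 3 tested members, of which Cyp2a4 was called higher.

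**Figure D4:**
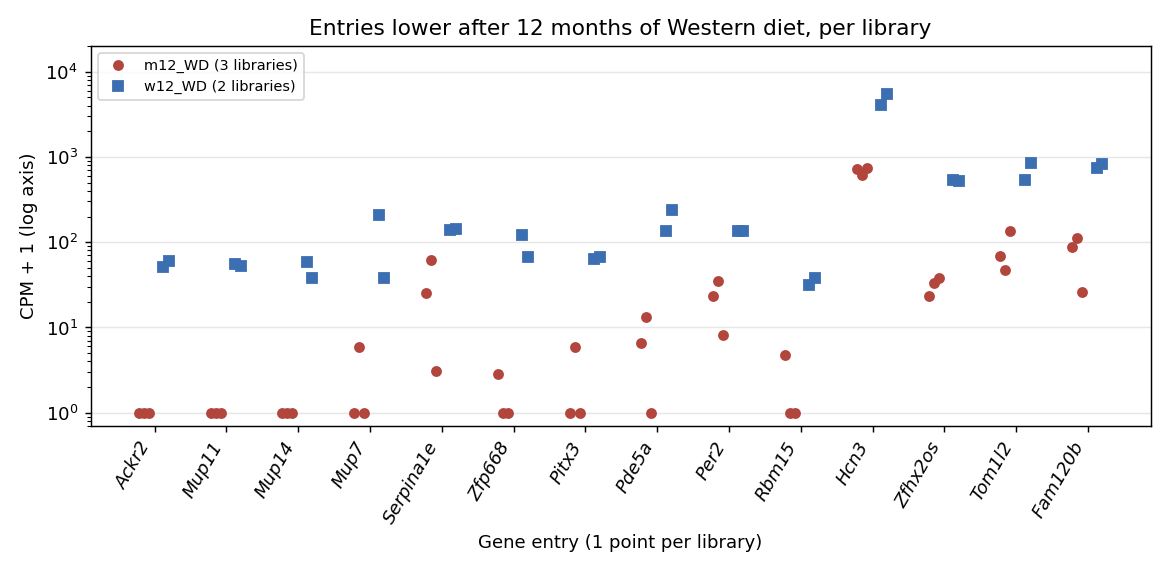
CPM + 1 per library (log axis) of entries called lower, with the 3 m12_WD libraries as red circles and the 2 w12_WD libraries as blue squares. The circles lie below the squares for every entry shown, and Ackr2, Mup11 and Mup14 are at 0 counts in all m12_WD libraries. Separation was largely set by the choice of called entries, since 590 of 595 called genes have groups that do not overlap.

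Several other genes were near 0 after 12 months. Ackr2, an atypical receptor that clears inflammatory chemokines (chr9:121898355-121911074), had 0 counts in all m12_WD libraries, against 49.9 and 59.0 CPM in w12_WD. It was at least 33.2-fold lower (edgeR adjusted p = 5.16e-05). Rbm15, which guides the m6A RNA methylation complex to its targets, had 2 counts over m12_WD and 18 over w12_WD, a ratio of 30.9 of w12_WD over m12_WD (exact 95% interval 7.40 to 275). It was the called member among 8 tested m6A genes. Zfp668, a zinc finger gene that overlaps Zfp646, had 1 count over m12_WD and 60 over w12_WD. The homeobox gene Pitx3, which overlaps Elovl3, had 2 counts over m12_WD and 35 over w12_WD. Pde5a, which breaks down cyclic GMP and overlaps 4930447N08Rik, averaged 5.94 ± 6.15 CPM in m12_WD and 186 ± 71.1 CPM in w12_WD. Per2, a repressor of the circadian clock, had 22.2, 34.4 and 7.27 CPM in m12_WD, against 133 and 133 CPM in w12_WD (log2 fold change -2.94, SE 0.55, edgeR adjusted p = 0.000437). The labels used here give no hour of sampling. Per2 was the called lower member among 6 tested clock genes.

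The smallest adjusted p of the comparison belonged to an entry that overlaps a gene on the other strand. Zfhx2os, an antisense entry to Zfhx2 (chr14:55053869-55075873), had 22.2, 31.9 and 37.4 CPM in m12_WD, against 530 and 524 CPM in w12_WD. Its log2 fold change was -4.26 (SE 0.38, edgeR adjusted p = 3.96e-09), and it held 2377 counts over all libraries against 41 for Zfhx2. Hcn3, annotated as an ion channel gene, had 712, 614 and 748 CPM in m12_WD, against 4040 and 5470 CPM in w12_WD. It overlaps Pklr, the liver pyruvate kinase gene, which held 293 counts against 15047 for Hcn3. Fam120b (overlapping Gm49668) averaged 74.1 ± 44.2 CPM in m12_WD and 778 ± 57.9 CPM in w12_WD, and Tom1l2 (overlapping Gm12265) averaged 83.7 ± 46.6 CPM in m12_WD and 688 ± 227 CPM in w12_WD. In each of these the groups did not overlap.

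Among entries annotated as antisense, 53 of 158 tested were called lower (33.5%) and 3 higher, with a median of -0.77. Protein-coding entries gave 287 higher and 200 lower among 4397, with a median of 0.30. AW495222, opposite Dmgdh, had 4320, 3850 and 3500 CPM in m12_WD, against 6800 and 8060 CPM in w12_WD. Without w12_WD 1, 29 of 158 antisense entries were called lower, without w12_WD 2, 30 of 158, and with classes scaled apart, 49 of 158. Of the 283 called entries with an overlap, 141 had a partner that was tested, and 19 of these partners were called, 17 in the same direction. The share of counts in overlapping entries moved with the groups, and its part in these decreases was not tested.

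The interval on Western diet after VC used other libraries and gave 27 calls (0.567%), 17 higher (0.357%) and 10 lower (0.21%). Of these, 20 were also among the 595, which is 74.1% of the calls after VC and 3.36% of those in clean air, and all 20 had the same direction. The 11 shared higher entries included Spp1, Cd74, Rps15, Mir142b and AV064505, and the 9 shared lower ones included Fam120b, Tom1l2, Gm10007 and 4930455C13Rik. Spp1 averaged 63.7 ± 21.1 CPM in m12_WD+VC and 8.93 ± 10.0 CPM in w12_WD+VC (SD, n = 3 each; log2 fold change 2.92, SE 0.66, edgeR adjusted p = 0.0276). Cd74 averaged 128 ± 55.4 CPM in m12_WD+VC and 12.0 ± 8.0 CPM in w12_WD+VC (edgeR adjusted p = 0.00887). AV064505, which overlaps Mmp7, averaged 195 ± 46.0 CPM in m12_WD against 13.3 ± 2.03 CPM in w12_WD, and 131 ± 45.9 CPM in m12_WD+VC against 5.13 ± 4.58 CPM in w12_WD+VC. Entries without an opposite-strand overlap held 16.9% ± 2.63 of counts in w12_WD+VC and 20.6% ± 2.41 in m12_WD+VC (SD, n = 3 each). Their mean share rose as it did in clean air, and its part in the shared directions was not tested. In the interval after VC, genes higher in clean air had a median log2 fold change of 0.67 and genes lower in clean air a median of -0.61, beside 0.07 for all genes. Without m12_WD+VC 2 there were 2 calls in that interval, without w12_WD+VC 2 there were 4, without w12_WD+VC 3 there were 10, and without m12_WD+VC 1 there were 17.

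The difference between both Western diet intervals was tested as an interaction, which shares the m12_WD and w12_WD libraries with the results above. It called 8 genes (0.168%), all of them also called in clean air. Pigr averaged 1050 ± 190 CPM in m12_WD+VC and 839 ± 307 CPM in w12_WD+VC, and the time effect after VC minus that in clean air was -1.92 on the log2 scale (edgeR adjusted p = 0.0492). Zfhx2os averaged 253 ± 95.4 CPM in m12_WD+VC and 422 ± 165 CPM in w12_WD+VC (edgeR adjusted p = 0.000413), and Hcn3 averaged 1070 ± 203 CPM in m12_WD+VC and 745 ± 412 CPM in w12_WD+VC (edgeR adjusted p = 0.0044). The others were Zfp668, Gpr108, Mfsd4, 1700034P13Rik and 4932416H05Rik, each lower in m12_WD than in w12_WD. Without w12_WD 2 there were 4 calls, and without w12_WD+VC 1 or without m12_WD+VC 1 there were 5.

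The interval on control diet gave 64 calls (1.34%), 30 higher (0.63%) and 34 lower (0.714%), and 19 of these were among the 595 with the same direction, 6 higher and 13 lower, with 2 in opposite directions. This is 29.7% of the control diet calls and 3.19% of those on Western diet. Mup3, Mup7, Mup14 and Serpina1e were lower with time on control diet as well. Serpina1e averaged 25.2 ± 7.14 CPM in m12_CD and 357 ± 61.2 CPM in w12_CD (SD, n = 3 each; edgeR adjusted p = 0.00327), and Mup3 averaged 119 ± 77.4 CPM in m12_CD and 766 ± 510 CPM in w12_CD (edgeR adjusted p = 0.0314). Ctsa rose on both diets, to 8550 ± 3710 CPM in m12_CD against 2310 ± 928 CPM in w12_CD. The ribosomal list had a median of 0.0 on control diet, where its member Rpl27a was called higher, as was Rpl36 outside the list. In the interval after VC the median of the ribosomal list was 0.93, with 0 members called. Spp1 averaged 2.43 ± 2.60 CPM in m12_CD and 2.34 ± 2.06 CPM in w12_CD, with 3 counts over m12_CD and 2 over w12_CD. Without w12_CD 2 or without m12_CD 3 there were 18 control diet calls, without m12_CD 1 there were 26, and without m12_CD 2 there were 33.

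The diet by time interaction called 282 genes (5.92%), 193 of them also called over time on Western diet, 79 higher and 114 lower. Entries without an opposite-strand overlap held 17.0% ± 4.53 of counts in w12_CD and 15.5% ± 3.61 in m12_CD (SD, n = 3 each). This share rose over time on Western diet and not on control diet, and its part in the interaction was not tested. The interaction shares the Western diet libraries with the results above. With classes scaled apart it called 238 genes, with 79 differences above 0 and 159 below 0. Without w12_WD 2 it called 45 genes, without w12_CD 2 it called 128, without w12_CD 1 it called 146, without m12_CD 1 it called 158, without w12_WD 1 it called 162, and without m12_WD 1 or without m12_WD 2 it called 187. Hp averaged 631 ± 223 CPM in m12_CD and 569 ± 117 CPM in w12_CD, and its time effects differed by 2.38 (SE 0.51, edgeR adjusted p = 0.00653). The difference was also called for Trf, Hpx, C3, Rpl13a, Ehhadh and Psap, all called higher over time on Western diet. On control diet their log2 changes were 0.12 for Trf, -0.62 for Hpx, -0.17 for C3, -0.20 for Rpl13a, -1.49 for Ehhadh and -1.22 for Psap. It was called as well for Zfhx2os, Hcn3, Fam120b, Tom1l2 and Per2, lower on Western diet, with -0.48, 0.17, 0.30, -0.14 and -0.58 on control diet in that order. None of these control diet changes passed the edgeR test. For Spp1 and Cd74 the difference between diets was not called, with adjusted p of 0.229 and 0.191 from edgeR.

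**Figure D5:**
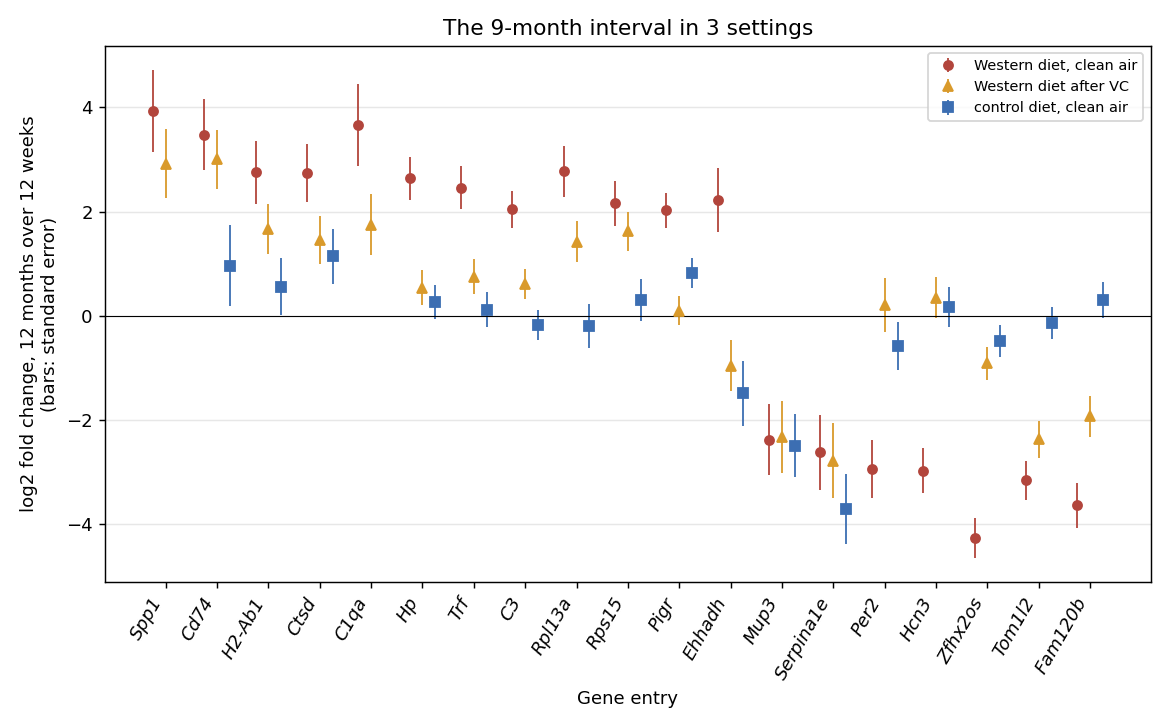
Log2 fold change of 12 months over 12 weeks (y axis, bars are standard errors) for named genes (x axis) on Western diet in clean air (red circles), on Western diet after VC (yellow triangles) and on control diet in clean air (blue squares). No point is drawn where a group held 3 counts or fewer. Spp1, Cd74 and Rps15 lie above 0 in both Western diet intervals, Mup3 and Serpina1e lie below 0 in all 3, and Hcn3 and Per2 lie below 0 in clean air on Western diet and near 0 after VC.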

How the data were processed

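Liver total RNA was depleted of ribosomal RNA and sequenced from TruSeq libraries, per the labels' protocols. Trimmomatic 0.38, HISAT2 2.1.0, HTSeq 0.11.2 and mm10 are named in the submitters' processing notes, while the authors' annotation and strand setting are not stated there. The authors deposited 1 table of raw counts per gene for the series. Their deposited files of single samples give log2 values, which were checked to follow log2(count / size factor + 1), and were not tested. Symbols were placed on GENCODE M21, 23336 by symbol and 648 by synonym, with 437 not placed, and overlaps were found with bedtools 2.31.1.

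Counts of 23 libraries (126160 to 962493 counts each) went through filterByExpr and TMM scaling. A quasi-likelihood model of edgeR 4.0.16 (R 4.3.3) with 8 groups tested 4764 genes, with Benjamini-Hochberg adjustment at 0.05. The standard error is the log2 fold change divided by the square root of F. The spread is shared over all groups, with a biological coefficient of variation of 0.324. Replicates differed by more than sampling noise (chi-square per degree of freedom 3.08 to 12.6). On simulated counts 8.96% of 2-fold, 59.7% of 4-fold and 66.7% of 8-fold changes were recovered. There were 4 calls among the unchanged genes, in a run of 4063 genes with the changed ones included. The simulation had no group difference in the share of counts in overlapping entries, so it cannot show how many calls follow from that difference.

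The rule for named genes took, in each direction, at most 12 called genes by size of fold change that reached 20 CPM in either group without overlap between the groups (predicted and clone symbols aside), then at most 3 called members of each list and a fixed set. Genes shared with the interval after VC, interaction genes, antisense entries and further list members were chosen after their values were seen. The members, lists and rule were chosen with earlier results of these data known. Lists are described by counts and medians, with no test. Alternatives were RLE size factors, no filter, DESeq2 1.42.0, limma-voom (limma 3.58.1), the compared groups alone, the replicate number as a block, all 24 libraries, class-wise scaling, entries without an overlap alone, and leaving out each library. Floors are 3 counts, and intervals are exact at 95% and cover counting error only. Bounds and ratios pool the counts over the libraries of a group, so deeper libraries weigh more.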

Additional observations from a re-analysis of the deposited data

Results flagged for a closer look

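The change over time on Western diet in clean air differed from other intervals in 2 tests of the difference itself, both interaction terms of the edgeR model at an adjusted p under 0.05. Both tests share the m12_WD and w12_WD libraries with the results above, so they are not a separate line of data. The diet by time test called 282 genes and the VC by time test called 8.

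For diet by time, the values are the log2 change on Western diet minus that on control diet. Among macrophage, antigen presentation and lysosomal genes the difference was 9.77 for Lyz2, 7.25 for H2-Aa, 2.23 for B2m, 3.73 for Grn, 3.45 for Psap and 1.57 for Lamp1. For the keratin gene Krt18 it was 2.57. Among secreted and iron-binding proteins it was 2.38 for Hp, 3.12 for Hpx, 2.2 for C3, 2.34 for Trf, 2.09 for Ahsg, 2.37 for Ftl1 and 1.74 for Fth1. Among genes of fat metabolism it was 3.71 for Ehhadh, 4.87 for Cyp4a10, 3.55 for Ppara and 2.59 for Plin2, and -2.04 for the sterol pump gene Abcg8. The control diet changes behind them were -1.49 for Ehhadh, -2.51 for Cyp4a10, -2.38 for Ppara, -0.83 for Plin2 and 0.73 for Abcg8, none of which passed the edgeR test. For protein synthesis and folding it was 2.97 for Rpl13a, 2.07 for Eef1a1 and 1.36 for Calr. Ppara did not pass in the time effect on Western diet itself.

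Among entries that were lower in m12_WD, the diet by time difference was -7.06 for Ackr2, -6.31 for Mup11, -5.85 for Zfp668, -5.47 for Rbm15, -3.66 for Zap70 and -2.35 for Per2. For entries annotated opposite or beside another gene it was -3.93 for Fam120b, -3.78 for Zfhx2os, -3.13 for Hcn3, -3.02 for Tom1l2, -3.01 for 1700034P13Rik, -1.48 for Mfsd4 and -1.45 for 4930455C13Rik. For Gm10007 and 4932416H05Rik, which were not placed on the annotation, it was -2.34 and -3.59. Lyz2, H2-Aa, Ackr2, Mup11, Zfp668 and Rbm15 held 3 counts or fewer in a group, so their fitted values depend on the prior count and are no measure of size.

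For VC by time, the values are the log2 change after VC minus that in clean air. The difference was -1.92 for Pigr, which was called higher in clean air. For the entries that were lower in clean air it was 5.49 for Zfp668, 3.35 for Zfhx2os, 3.31 for Hcn3, 2.58 for 1700034P13Rik, 2.56 for 4932416H05Rik, 2.55 for Gpr108 and 1.96 for Mfsd4.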

How the results depend on the processing

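The 595 calls became 382 with the compared groups alone, 229 with overlapping entries left out, and 189 to 611 when 1 library was left out. The 27 calls after VC became 52 without a filter, 71 with DESeq2, 199 with limma-voom, 170 with the compared groups alone, 42 with classes scaled apart, 1 without overlapping entries, and 2 to 26 when 1 library was left out. The 64 control diet calls became 120 with DESeq2, 123 with limma-voom, 39 with the compared groups alone, 21 without overlapping entries, and 18 to 60. The 282 diet by time calls became 166 with the compared groups alone, 97 without overlapping entries, and 45 to 334. The 8 VC by time calls became 18 without a filter, 23 with DESeq2, 19 with limma-voom, 13 with the compared groups alone, 13 with classes scaled apart, and 4 to 12. Fewer genes and fewer samples enter several of these fits, and other causes were not tested. Of the named genes, Fasn turned to -0.115 without m12_WD 2 (range -0.115 to 2.31), and Scd1 to 0.416 with the replicate block and to 1.08 at most without w12_WD 1 (range -1.48 to 1.08, 0.0973 without m12_WD 3). Neither gene was called in any of these. With the replicate block 623 genes were called. The shared numbers did not pair the libraries, with correlations of 0.111 and -0.149 between same-numbered libraries over 2 numbers. Depth limits genes below about 22.1 CPM in w12_WD 2.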

Other observations

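In some further gene groups of the liver, calls were no more frequent than over all genes tested, where 595 of 4764 (12.5%) were called. Of 18 tested genes of bile acid synthesis and sterol export, 1 was called higher and 1 lower, with a median log2 fold change of 0.37, which turned to -0.10 with classes scaled apart. Their summed level was 1660 to 2180 CPM in m12_WD and 2460 to 2770 CPM in w12_WD, without overlap. Of 25 tested genes of the urea cycle and amino acid breakdown, 1 was called higher and 1 lower, with a median of 0.27, which turned to -0.03 with classes scaled apart. Noncoding entries other than antisense ones gave mostly calls lower. Of 38 tested lincRNA entries 1 was higher and 11 were lower, of 61 processed transcripts 0 were higher and 14 were lower, and of 22 miRNA entries 1 was higher and 6 were lower.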
